A study of Mus musculus with 9 samples.

Results

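The 42 genes described here encode proteins of the contractile apparatus, calcium handling and energy metabolism of skeletal muscle. They were chosen by name, as a list and with earlier results of these data known, out of 35150 mouse genes with transcripts in the files. In the list, 14 genes belong to fast fibres, 6 to slow fibres, 12 to the sarcomere of both, 3 to calcium handling in both and 7 to muscle metabolism. The study sequenced RNA of whole subcutaneous fat from mice in which AGO1 was knocked out in endothelial cells and from wild-type littermates. Its 9 libraries, from C57BL/6 animals aged 24 weeks, fall into groups that the labels call WT, Hete KO and Homo KO, with 3 libraries each. Hete KO and Homo KO are read here as the labels' words for the heterozygous and homozygous knockout. The sources used here do not give the promoter that drives the deletion, the Cre line or the alleles. In what follows, values of a group are in the order of its replicates 1, 2 and 3, and gene positions are on mm10 from GENCODE M21. The labels do not state that replicates are separate animals, so p-values measure the spread between these libraries, which may be in part technical.

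A muscle fibre shortens when myosin heavy chains, each with a regulatory and an essential light chain, pull on actin filaments. Calcium released from the sarcoplasmic reticulum binds troponin C, and troponin I and troponin T then let myosin reach the actin. Fast and slow fibres build this machine in part from different genes, so that the myosin chains and the troponins each have fast and slow forms. Adipose tissue itself contains no skeletal muscle fibres.

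All 9 libraries held fat. The 8 adipocyte genes on the marker list, among them the adipokine gene Adipoq and the fatty acid binding protein gene Fabp4, summed to between 10338 and 14905 TPM. TPM is a level corrected for transcript length and scaled to the same total in every library. Ago1, the targeted gene, had 69.9, 63.8 and 63.4 CPM, which are counts scaled to library size, in the WT libraries, 51.2, 59.7 and 60.1 in those of Hete KO and 62.2, 58.6 and 25.7 in those of Homo KO. Its log2 fold change was -0.43 (SE 0.265) in Homo KO against WT and -0.21 (SE 0.264) in Hete KO against WT, with edgeR adjusted p values of 0.441 and 0.699. Neither KO group overlapped WT for Ago1. The same held, in either direction, for 22.1% of all genes in Homo KO against WT and 24.7% in Hete KO against WT. The 7 liver genes that were matched summed to 819 TPM in WT 2 and 699 TPM in WT 3, and to between 11.8 and 56.7 TPM in the other 7 libraries.

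Skeletal muscle transcripts made up very different parts of these libraries. The 42 genes held 3.67, 2.87 and 0.0277% of the estimated counts in the WT libraries, 0.446, 8.77 and 0.120 in those of Hete KO and 0.0896, 0.0502 and 0.0193 in those of Homo KO. Hete KO 2, WT 1 and WT 2 were the highest, Hete KO 1 came next, and WT 3 and Homo KO 3 were the lowest. Within WT and within Hete KO the highest library exceeded the lowest by more than 10-fold. In a bulk library, fewer cells of a type and less RNA per cell cannot be told apart. Of the 42 genes, 31 had their highest TPM in Hete KO 2, and for 29 the highest 3 libraries were WT 1, WT 2 and Hete KO 2. These 3 libraries were named beforehand for their muscle RNA, and the genes were chosen with earlier results of these data known. The 2 counts are therefore no independent result, and the share of all genes with the same order was not counted. For 22 genes the highest library exceeded the lowest by more than 100-fold. For 4 the ratio lay between 10 and 100 and for 7 under 10. For the other 9 no ratio is given, because the lowest library held 3 or fewer counts.

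**Figure D1:**
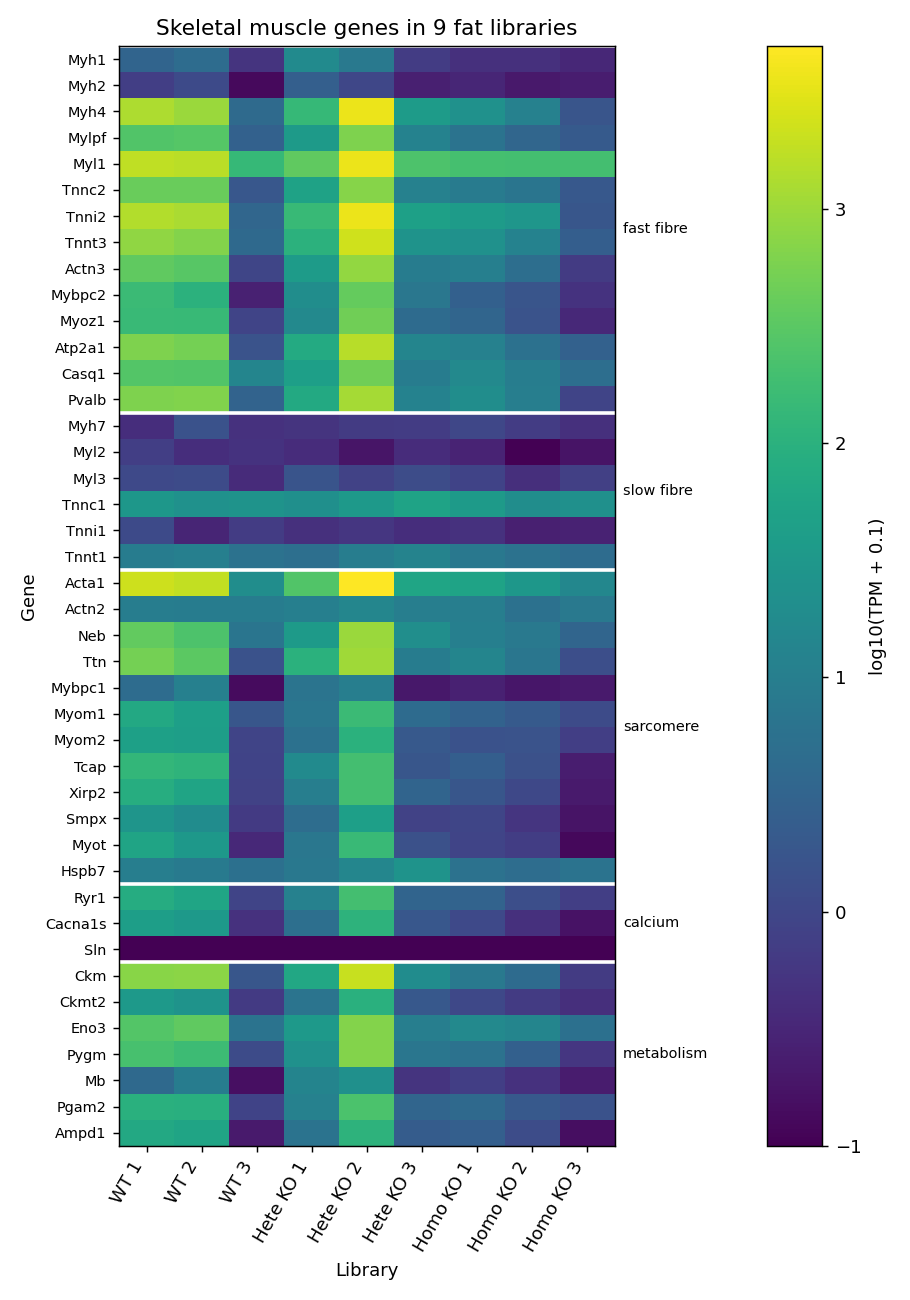
Level of the 42 skeletal muscle genes (vertical axis, grouped by role) in the 9 libraries (horizontal axis), with colour giving log10(TPM + 0.1). Most genes of the fast fibre, sarcomere, calcium and metabolism groups are brightest in Hete KO 2, WT 1 and WT 2, while the slow fibre genes keep a similar colour in all 9 libraries.

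The summed fast fibre genes were highest in the same libraries, and the summed slow fibre genes were not. The 14 fast genes summed to 8244, 7209.6 and 179 TPM in the WT libraries, 1118, 19353 and 431 in those of Hete KO and 373, 288 and 217 in those of Homo KO. The 6 slow genes summed to 43.1, 36.7 and 32.8 TPM in the WT libraries, 29.7, 45.99 and 67.6 in those of Hete KO and 45.99, 27.1 and 28.8 in those of Homo KO. The slow sum was highest in Hete KO 3, a library with 0.120% of counts on muscle genes, and its full range over the 9 libraries was 27.1 to 67.6 TPM.

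Myosin heavy chain is the motor of the sarcomere, and its gene is the usual label of a fibre type. Myh4 encodes the chain of the fastest fibres, type IIB (chr11:67238029-67260446, plus strand, ENSMUSG00000057003.12). It had 1329, 998 and 4.02 TPM in the WT libraries, 141, 3696 and 38.2 in those of Hete KO and 23.7, 11.4 and 1.61 in those of Homo KO. Hete KO 2, WT 1 and WT 2 were highest, and the WT and Homo KO ranges overlapped because WT 3 lay between Homo KO 2 and Homo KO 3. Myh4 rested on between 169.9 and 380377 estimated counts per library.

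Myh1, the chain of fast type IIX fibres (chr11:67200052-67224575, plus strand, ENSMUSG00000056328.14), had 3.14, 4.42 and 0.417 TPM in the WT libraries, 17.96, 7.96 and 0.571 in those of Hete KO and 0.345, 0.345 and 0.236 in those of Homo KO. Myh2, the chain of fast oxidative type IIA fibres (chr11:67171027-67197517, plus strand, ENSMUSG00000033196.17), had 0.641, 1.04 and 0.0339 TPM in the WT libraries, 2.58, 0.911 and 0.155 in those of Hete KO and 0.213, 0.107 and 0.133 in those of Homo KO. Both were highest in Hete KO 1, not in the libraries with the most muscle RNA. WT overlapped Hete KO for both genes, while every Homo KO value of Myh1 lay under WT 3 in TPM but not in CPM. Myh7, the heavy chain of slow fibres and of the heart (chr14:54970684-54994626, minus strand, ENSMUSG00000053093.16), had 0.319, 1.39 and 0.364 TPM in the WT libraries, 0.413, 0.548 and 0.591 in those of Hete KO and 0.899, 0.578 and 0.347 in those of Homo KO. By TPM the highest Myh7 library was WT 2 and the lowest WT 1, both of them libraries with abundant Myh4. In CPM Homo KO 1 was highest, at 1.81, and WT 2 had 1.12. Myh7 rested on 19 to 40 counts per library.

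The chains are similar enough that short reads can be shared between them. The coding sequence of Myh4 was 90.1% identical to that of Myh1, 88.2% to that of Myh2 and 77.5% to that of Myh7. Of all stretches of 31 bases in each transcript, 69.1% in Myh4, 59.3% in Myh1 and 61.0% in Myh2 occurred in none of the other striated muscle heavy chain genes compared (Myh1, Myh2, Myh3, Myh4, Myh6, Myh7, Myh8 and Myh13). The stretches below, 60 bases of the coding sequence of the myosin tail, let the 4 chains be compared base by base. Among gap-free stretches within an exon, this one was picked for the most bases at which Myh4 differs from all the other chains. It thus overstates how far Myh4 differs from Myh1 and Myh2 over the whole coding sequence. Capitals mark the bases that differ from Myh4. They lie on mm10 at chr11:67257197-67257256 (plus strand) for Myh4, chr11:67220900-67220959 (plus) for Myh1, chr11:67193716-67193775 (plus) for Myh2 and chr14:54973341-54973400 (minus) for Myh7.
Myh4: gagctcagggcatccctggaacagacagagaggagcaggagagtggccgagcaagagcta
Myh1: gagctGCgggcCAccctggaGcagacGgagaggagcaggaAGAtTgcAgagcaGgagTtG
Myh2: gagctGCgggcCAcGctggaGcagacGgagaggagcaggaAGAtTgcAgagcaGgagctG
Myh7: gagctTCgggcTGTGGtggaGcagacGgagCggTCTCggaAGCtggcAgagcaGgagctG
In this stretch Myh1 and Myh2 differed from Myh4 at 14 bases each, and Myh7 differed at 20 bases.

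Among the transcripts of these 4 heavy chain genes, Myh4 held 99.7, 99.3 and 83.1% of the summed TPM in the WT libraries, 87.1, 99.7 and 96.7 in those of Hete KO and 94.2, 91.7 and 69.2 in those of Homo KO. Myh1 held 0.236, 0.439 and 8.63% in the WT libraries, 11.1, 0.215 and 1.44 in those of Hete KO and 1.37, 2.77 and 10.2 in those of Homo KO. Hete KO 1 stood out, since its 11.1% rested on 1564 Myh1 counts beside 15274 Myh4 counts, whereas WT 1, WT 2 and Hete KO 2 had 176, 421 and 730 Myh1 counts beside at least 104295 of Myh4. On the count scale the Myh1 share was 9.12% in Hete KO 1 (95% Wilson interval 8.70 to 9.56%) and 0.402% in WT 2 (0.365 to 0.442%). These intervals cover counting error only. WT 3 and Homo KO 3 had Myh1 shares of 8.63 and 10.2% of TPM, on 16 and 13 Myh1 counts. The Myh1 counts also fell on different transcripts. In Hete KO 1 the 5938-base transcript held 1474 of them, and in WT 1 and WT 2 another one, ENSMUST00000124516, held 167 and 417. The part that sequence shared with Myh4 had in these values was not tested.

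**Figure D2:**
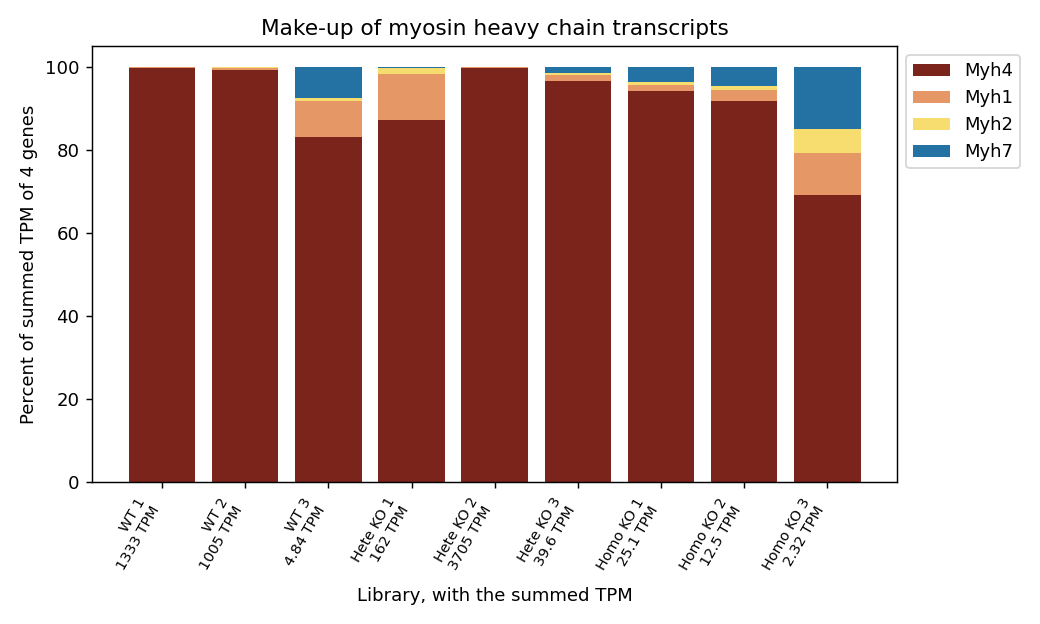
Share of each of 4 myosin heavy chain genes in their summed TPM (vertical axis, percent, stacked to 100) in the 9 libraries, with the summed TPM of the 4 genes under each name. Myh4 fills nearly the whole bar in WT 1, WT 2 and Hete KO 2, and the Myh1 part is largest in Hete KO 1, at 11.1%.

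The light chains gave the same contrast of fast and slow forms. Mylpf, the fast regulatory light chain (chr7:127208890-127214298, plus strand, ENSMUSG00000030672.12), had 259.9, 292 and 2.74 TPM in the WT libraries, 35.6, 605 and 11.7 in those of Hete KO and 5.95, 3.404 and 2.03 in those of Homo KO. Myl2, its slow and cardiac form, had 0.634, 0.316 and 0.397 TPM in the WT libraries, 0.303, 0.0811 and 0.299 in those of Hete KO and 0.192, 0 and 0.0769 in those of Homo KO, on no more than 6 counts in any library. Myl2 did not pass the filter on low counts and was not tested. Myl1, the fast essential light chain (chr1:66924295-66945404, minus strand, ENSMUSG00000061816.15), had 1773, 1595 and 143 TPM in the WT libraries, 355, 3637 and 242 in those of Hete KO and 209, 193 and 198 in those of Homo KO. Its slow counterpart Myl3 had 0.987, 1.11 and 0.279 TPM in the WT libraries, 1.54, 0.740 and 1.11 in those of Hete KO and 0.778, 0.337 and 0.686 in those of Homo KO, on 4 to 17 counts. The level of Myl1 never fell under 142.6 TPM, also in the libraries with little muscle RNA. Set against Acta1, the skeletal muscle actin gene, Myl1 stood at 824, 858 and 7099.6 per 1000 of Acta1 in the WT libraries, 1342, 730.4 and 4207 in those of Hete KO and 3996, 6304 and 13259 in those of Homo KO. In the same libraries Mylpf stood at 121, 157 and 137 per 1000 of Acta1 in the WT libraries, 135, 121 and 204 in those of Hete KO and 114, 111 and 136 in those of Homo KO. The Myl1 ratio was thus lowest where muscle RNA was highest, while the Mylpf ratio stayed between 111 and 204 in all 9 libraries. Casq1, the calcium store of the fast sarcoplasmic reticulum, was also higher against Acta1 in the other 6 libraries than in WT 1, WT 2 and Hete KO 2, with 128, 139.7 and 668 per 1000 of Acta1 in the WT libraries, 171, 95.95 and 158 in those of Hete KO and 309.9, 315 and 320.5 in those of Homo KO.

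The troponins carry the calcium signal to the actin filament. Tnnc2, the fast troponin C (chr2:164777161-164779967, minus strand, ENSMUSG00000017300.9), had 426, 414 and 1.81 TPM in the WT libraries, 50.8, 697 and 11.5 in those of Hete KO and 8.96, 6.64 and 1.88 in those of Homo KO. Tnni2, the fast inhibitory troponin I (chr7:142441808-142444410, plus strand, ENSMUSG00000031097.15), had 1433, 1255 and 3.51 TPM in the WT libraries, 144, 3589 and 45.8 in those of Hete KO and 37.7, 28.9 and 1.71 in those of Homo KO. Tnnt3, the fast troponin T that anchors the complex to tropomyosin (chr7:142498836-142516009, plus strand, ENSMUSG00000061723.18), had 825, 670.0 and 4.01 TPM in the WT libraries, 106, 2239.5 and 25.3 in those of Hete KO and 23.3, 11.8 and 2.38 in those of Homo KO. All 3 spanned more than 100-fold between Hete KO 2 and their lowest library, WT 3 for Tnnc2 and Homo KO 3 for Tnni2 and Tnnt3. Of the 700 bases of the Tnnc2 transcript, 592 overlap Ube2c on the opposite strand, and whether the counting used strand is not stated, so the low Tnnc2 values are uncertain.

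The slow troponins varied much less between libraries than the fast ones. Tnnc1, the troponin C of slow fibres and heart (chr14:31208312-31211729, plus strand, ENSMUSG00000091898.8), had 31.04, 23.2 and 25.3 TPM in the WT libraries, 21.9, 34.6 and 52.9 in those of Hete KO and 36.3, 20.3 and 23.1 in those of Homo KO. Tnnt1, the slow troponin T (chr7:4504570-4516382, minus strand, ENSMUSG00000064179.13), had 9.13, 10.4 and 5.88 TPM in the WT libraries, 5.19, 9.58 and 12.4 in those of Hete KO and 7.47, 5.74 and 4.43 in those of Homo KO. Tnni1, the slow troponin I (chr1:135779434-135810989, plus strand, ENSMUSG00000026418.16), had 1.02, 0.204 and 0.588 TPM in the WT libraries, 0.341, 0.461 and 0.309 in those of Hete KO and 0.365, 0.160 and 0.176 in those of Homo KO. Over the 9 libraries Tnnc1 varied 2.61-fold and Tnnt1 2.80-fold, with Hete KO 3 the highest library for both, while Tnnc2 varied 385-fold and Tnnt3 940-fold.

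Most counts of the slow genes lay on transcript models that encode no protein. Summed over the 9 libraries, protein-coding transcripts held 0.476% of the counts of Tnnc1, 1.36% of Myh7, 2.80% of Tnnt1, 13.4% of Myl3 and 18.6% of Tnni1. Myl2 was the exception among the slow genes, with 96.3% of its counts on coding transcripts. Among the 14 fast genes the share was 63.7% for Casq1, 86.0% for Actn3 and above 90% for the other 12. Hete KO 2, WT 1 and WT 2 hold most of the counts behind these sums, other than for Myh1, Myh2 and the slow genes. Hete KO 1 held most counts of Myh1 and Myh2. Within single libraries, by TPM, the coding share of fast genes was at times much lower, such as 38.4% for Tnni2 and 31.1% for Actn3 in Homo KO 2, 31.4% for Myoz1 in WT 3 and 56.6% for Myl1 in Homo KO 3. That of the slow genes Tnni1 and Myl3, on few counts, reached 77.7% in Hete KO 2 and 70.8% in Hete KO 1. Tnnc1 stayed at or under 1.26% and Tnnt1 at or under 7.57% in all 9 libraries. Nearly all Tnnc1 counts, 99.5%, were assigned to 1 model of 660 bases that the annotation calls a retained intron, and 320 of its bases lie outside the exons of the 721-base coding transcript (chr14:31210679-31210998). The boundary of this model is shown because the Tnnc1 values rest on it. Its 60 bases at chr14:31210649-31210708 (mm10, plus strand) hold the end of an exon in capitals and the start of the retained intron in lower case.
Tnnc1: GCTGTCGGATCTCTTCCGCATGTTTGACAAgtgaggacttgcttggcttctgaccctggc
The main models of Myh7 (3769 bases), Myl3 (1125 bases) and Tnnt1 (485 bases) hold 2214, 799 and 338 bases outside the coding exons. Of the slow gene counts, which were 334, 309 and 354 in all in the WT libraries, 279, 391.7 and 464 in those of Hete KO and 348, 201 and 271 in those of Homo KO, coding transcripts held 16.5, 5 and 12 in the WT libraries, 13.8, 10.04 and 11.1 in those of Hete KO and 8, 0 and 3 in those of Homo KO. Hete KO 2, with 8.77% of its counts on the 42 muscle genes, had 10.04 slow counts on coding transcripts, and WT 3, with 0.0277%, had 12.

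**Figure D3:**
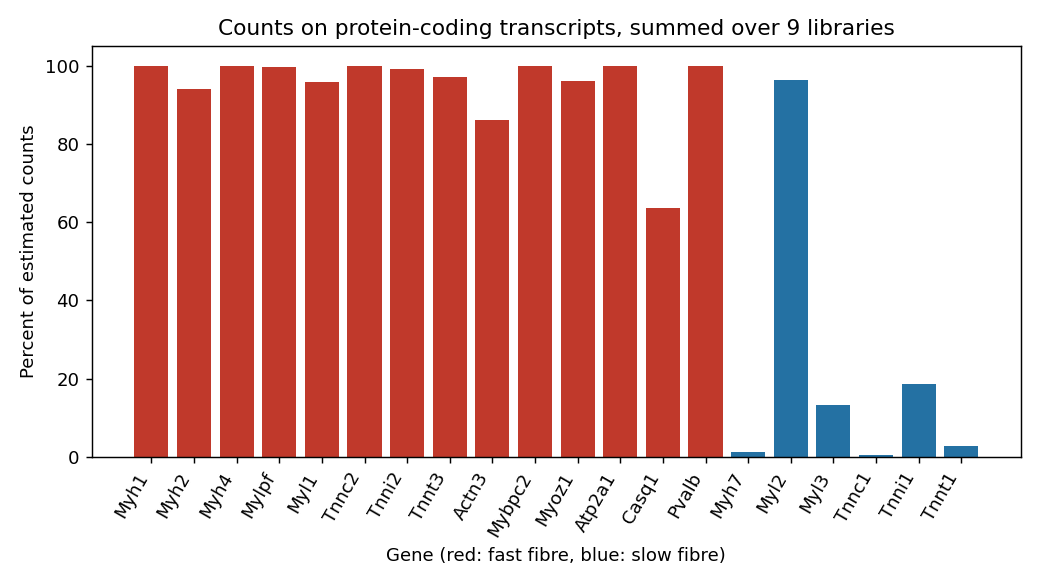
Percent of estimated counts, summed over 9 libraries, that lay on protein-coding transcripts (vertical axis) for the 14 fast fibre genes in red and the 6 slow fibre genes in blue. The red bars lie at 63.7% or above, and 5 of the 6 blue bars lie at 18.6% or below.

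The fast share of the paired genes was taken as the summed TPM of the fast forms over that of the fast and slow forms, over 6 pairs with 14 genes. It was 99.3, 99.3 and 82.9% in the WT libraries, 96.6, 99.7 and 84.7 in those of Hete KO and 87.05, 90.4 and 87.8 in those of Homo KO. WT 1, WT 2 and Hete KO 2 thus lay above 99%, Hete KO 1 came next, and the other 5 libraries lay between 82.9 and 90.4%. With protein-coding transcripts only, an alternative chosen after the data were seen, the share was lowest in WT 3, at 99.2%, and highest in Homo KO 2, where no count lay on a coding slow transcript. With the essential light chains left out, also chosen after the data were seen, it was 99.02, 99.03 and 33.7% in the WT libraries, 94.7, 99.6 and 66.7 in those of Hete KO and 68.9, 70.1 and 26.2 in those of Homo KO.

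Taken pair by pair, the fast form made up over 99% of the TPM in WT 1, WT 2 and Hete KO 2 for heavy chains, both light chains and troponin I. For troponin T it was 98.9, 98.5 and 99.6% in these libraries. For troponin C it was 93.2, 94.7 and 6.68% in the WT libraries, 69.9, 95.3 and 17.9 in those of Hete KO and 19.8, 24.7 and 7.504 in those of Homo KO. On the count scale the troponin C share was 95.6% in Hete KO 2 (95% Wilson interval 95.1 to 96.1%) and 7.19% in WT 3 (4.71 to 10.8%). The pair with the lowest fast share in every library, troponin C, is the one whose slow form has 0.476% of its counts on coding transcripts.

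**Figure D4:**
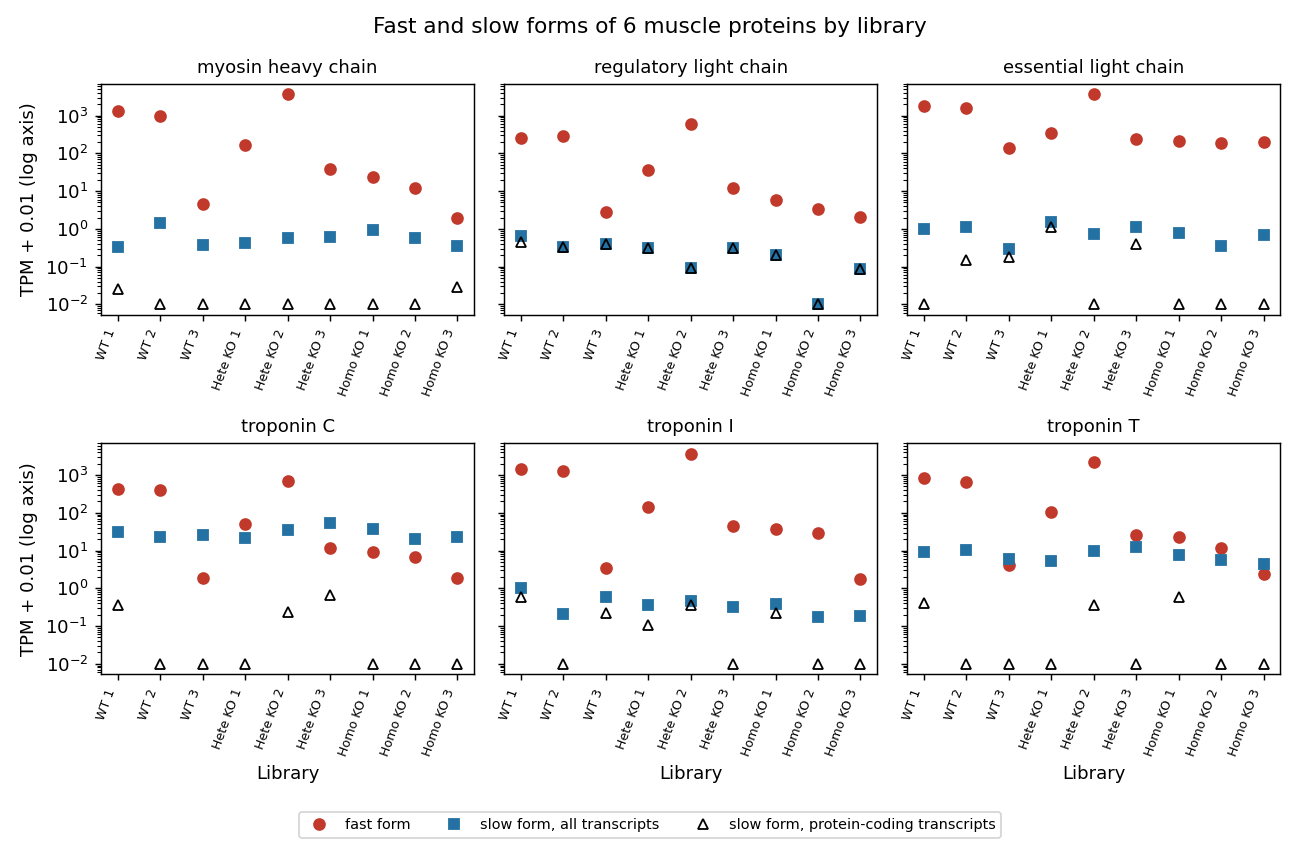
TPM + 0.01 on a log axis of the fast form (red circles) and the slow form (blue squares) of 6 muscle proteins in the 9 libraries, with the slow form on protein-coding transcripts alone as open triangles. The red circles of Tnni2 range from 1.71 to 3589 TPM between libraries, and the blue squares of troponin C and troponin T stay between 4.43 and 52.9 TPM.

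Between genotypes the fast share did not differ beyond the spread of the libraries. The mean share of WT was 93.8 ± 9.47%, that of Hete KO 93.7 ± 7.90% and that of Homo KO 88.4 ± 1.76% (SD, n = 3 each). A two-sided exact permutation test gave p = 0.4 for Homo KO against WT (a difference of -5.41 percentage points), p = 1.0 for Hete KO against WT (-0.145) and p = 0.4 for Homo KO against Hete KO (-5.27). Adjusted over these 3 comparisons by the Benjamini-Hochberg method the exact test's values were 0.6, 1.0 and 0.6. With 3 against 3 libraries the smallest p this test can give is 0.1. Both comparisons with WT share the same WT libraries.

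The other fast fibre genes were also highest in Hete KO 2. Atp2a1, the calcium pump of fast fibres (chr7:126445858-126463108, minus strand, ENSMUSG00000030730.12), had 625, 522 and 1.52 TPM in the WT libraries, 75.9, 1551 and 13.5 in those of Hete KO and 11.5, 5.495 and 2.83 in those of Homo KO. Pvalb, the calcium buffer parvalbumin of the fastest mouse fibres (chr15:78191114-78206400, minus strand, ENSMUSG00000005716.16), had 619.6, 646 and 3.02 TPM in the WT libraries, 70.3, 1146 and 11.8 in those of Hete KO and 19.7, 9.92 and 0.821 in those of Homo KO. Actn3, the Z-disc alpha-actinin found in fast fibres only (chr19:4861216-4877909, minus strand, ENSMUSG00000006457.4), had 360.5, 299 and 0.876 TPM in the WT libraries, 37.2, 845 and 9.48 in those of Hete KO and 10.6, 4.91 and 0.544 in those of Homo KO. All 3 were highest in Hete KO 2 and lowest in WT 3 or Homo KO 3. The Atp2a1 transcript shares 763 bases with Rabep2 on the opposite strand. Mybpc2, the fast myosin-binding protein C, ranged from 0.167 TPM in WT 3 to 390.1 TPM in Hete KO 2. Myoz1, a Z-disc protein of fast fibres, ranged from 0.245 to 469.9 TPM, and Casq1 from 4.78 to 478 TPM. Casq1 counts lay in part on a retained-intron model, which held 234 of its 478 TPM in Hete KO 2.

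Most genes used by both fibre types were highest in Hete KO 2 as well. Acta1, the actin of skeletal muscle thin filaments (chr8:123891769-123894751, minus strand, ENSMUSG00000031972.5), had 2150.5, 1858 and 20.1 TPM in the WT libraries, 264, 4979 and 57.6 in those of Hete KO and 52.3, 30.6 and 14.9 in those of Homo KO. It was the gene with the highest TPM of all 42 in Hete KO 2, WT 1 and WT 2. Ttn, the giant spring protein titin, ranged from 1.22 TPM in Homo KO 3 to 1085 TPM in Hete KO 2, and Neb, the thin filament ruler nebulin, from 3.25 to 988 TPM. The M-band genes Myom1 and Myom2 reached 160.8 and 98.0 TPM in Hete KO 2. The Z-disc genes Tcap, Xirp2 and Myot reached 194, 199 and 150.2 TPM there, and Smpx, a small protein of muscle cell attachment, reached 44.4 TPM. All of these were lowest in Homo KO 3.

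Actn2 and Hspb7 varied much less. Actn2, the Z-disc alpha-actinin of all fibre types, had 9.69, 9.48 and 9.23 TPM in the WT libraries, 10.6, 13.96 and 10.3 in those of Hete KO and 9.97, 5.52 and 7.88 in those of Homo KO, and 31.3% of its counts lay on coding transcripts. Hspb7, a small heat shock protein of heart and muscle, had 9.97, 8.04 and 5.33 TPM in the WT libraries, 7.54, 14.4 and 25.4 in those of Hete KO and 5.903, 4.66 and 5.996 in those of Homo KO, with its highest level in Hete KO 3. Actn2 varied 2.53-fold and Hspb7 5.44-fold over the 9 libraries. Mybpc1, the slow-type myosin-binding protein C that fast fibres also use, was highest in WT 2, at 11.0 TPM, and reached 6.36 TPM in Hete KO 1 and 9.96 TPM in Hete KO 2.

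The release of calcium was represented by Ryr1, the release channel, and Cacna1s, the voltage sensor that opens it. Ryr1 ranged from 0.653 TPM in Homo KO 3 to 194 TPM in Hete KO 2, and Cacna1s from 0.0664 to 107.6 TPM in the same libraries. The Cacna1s transcript shares 905 bases with Gm37759 on the opposite strand. Sln, which encodes sarcolipin, the small inhibitor of the calcium pump in slow and atrial muscle, is listed at 0 in all 9 libraries.

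All 7 metabolic genes were highest in Hete KO 2. Ckm, the cytosolic muscle creatine kinase (chr7:19404776-19422841, plus strand, ENSMUSG00000030399.2), had 722, 763 and 1.73 TPM in the WT libraries, 64.4, 1992 and 19.3 in those of Hete KO and 7.71, 4.22 and 0.560 in those of Homo KO. Pygm, the muscle glycogen phosphorylase, reached 655 TPM in Hete KO 2, Eno3 and Pgam2, enzymes of muscle glycolysis, 671 and 232 TPM, Ampd1, the AMP deaminase of fast muscle, 106.5 TPM, and Ckmt2, the mitochondrial creatine kinase, 95.9 TPM. Mb, the oxygen store myoglobin of oxidative fibres (chr15:77015487-77050670, minus strand, ENSMUSG00000018893.15), had 3.86, 9.18 and 0.0533 TPM in the WT libraries, 13.2, 23.1 and 0.401 in those of Hete KO and 0.641, 0.366 and 0.124 in those of Homo KO. By TPM, Mb in Hete KO 1 exceeded that in WT 1 and WT 2, although Ckm was more than 10-fold lower in Hete KO 1 than in either. In CPM, Mb was 5.56 in Hete KO 1 and 1.88 and 4.97 in WT 1 and WT 2. Ckm was 53.1 CPM in Hete KO 1 and 496 and 544 CPM in WT 1 and WT 2. The main transcripts of Mb and Ckm share up to 412 and 451 bases with a gene on the opposite strand.

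Hete KO 1 differed in make-up from the other libraries with muscle RNA, a comparison chosen after its values were seen. Set against Acta1 by TPM, Myh1 stood at 1.46, 2.38 and 20.8 per 1000 of Acta1 in the WT libraries, 67.9, 1.598 and 9.92 in those of Hete KO and 6.605, 11.3 and 15.9 in those of Homo KO. Mb stood at 1.79, 4.94 and 2.66 per 1000 of Acta1 in the WT libraries, 50.1, 4.64 and 6.96 in those of Hete KO and 12.3, 11.96 and 8.33 in those of Homo KO, and Mybpc1 at 2.07, 5.93 and 1.94 per 1000 of Acta1 in the WT libraries, 24.03, 2.001 and 1.68 in those of Hete KO and 3.24, 2.95 and 8.15 in those of Homo KO. All 3 ratios were highest in Hete KO 1. Myh2 stood at 0.298, 0.559 and 1.69 per 1000 of Acta1 in the WT libraries, 9.74, 0.183 and 2.697 in those of Hete KO and 4.07, 3.49 and 8.92 in those of Homo KO. Its ratio in Homo KO 3 was thus close to that in Hete KO 1, on far fewer counts (14 against 283). Myh4 in Hete KO 1 was at 534 per 1000 of Acta1, against 618, 537 and 742 in WT 1, WT 2 and Hete KO 2, and Mylpf was at 135 against 121, 157 and 121. The make-up of Hete KO 1 is that of a single library and has no replicate.

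In WT 1, WT 2 and Hete KO 2 most genes held a similar part of the muscle RNA. Each gene's share of the summed TPM of all 42 was compared over these 3 libraries for the 34 genes with at least 100 counts in each. The ratio of the highest to the lowest share had a median of 1.36 and a range of 1.02 for Acta1 to 3.01, and was under 1.5 for 22 of the 34 genes. The genes with the largest ratios were Mybpc1 (3.01), Tnnc1 (2.12) and Actn2 (1.85). WT 1 had a Mybpc1 share of 0.0335%, WT 2 of 0.0954% and Hete KO 2 of 0.0317%. The Tnnc1 and Actn2 shares were lowest in Hete KO 2, the library with the most muscle RNA.

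Homo KO was compared with WT in a fit over 17984 genes, 40 of the 42 muscle genes among them. By edgeR's quasi-likelihood test with Benjamini-Hochberg adjustment 0 of the 40 passed, beside 0% of all genes, and 32 had an unadjusted p under 0.05, all of them lower in Homo KO, beside 8.7% of all genes in this direction. Most muscle genes were highest in the same libraries, so these 32 are not independent observations. The median log2 fold change of the 40 was -5.33, and that of all genes -0.01. The median of the members was -4.28 with the replicate block and between -5.97 and -4.84 when 1 library was left out. By limma it was -3.32 and -3.65 with 0.5 and with 0.1 added to TPM before the log2. Such an addition understates changes of low genes. Acta1, at 14.9 TPM or more in every library, gave -3.89 and -3.90 by limma and -5.34 by edgeR. The cause of the smaller limma values was not tested. DESeq2 called 13 of the 31 members for which it gave an adjusted p, all lower, beside 1.91% of all its genes in this direction, among them Myh4, Tnnc2, Smpx and Tcap. It gave none for Acta1, Ckm, Tnni2, Tnnt3, Atp2a1, Myl1, Myoz1, Pygm, Pgam2, Myl2 and Sln. Why the abundant genes among these had none was not tested. limma on log2 TPM called 0. The groups did not overlap for 3 of the 40, Smpx, Casq1 and Actn2, all lower, beside 22.1% of all genes in either direction and 11.2% in this one.

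The muscle genes with the smallest p in Homo KO against WT were Smpx, Tnnc2 and Tcap. Smpx had 12.9, 10.02 and 0.356 CPM in the WT libraries, 1.78, 23.3 and 0.340 in those of Hete KO and 0.181, 0.0950 and 0.0411 in those of Homo KO. Its log2 change was -6.14 (SE 1.85, edgeR adjusted p = 0.205). Tnnc2 had 144, 153 and 0.713 CPM in the WT libraries, 18.2, 263 and 4.08 in those of Hete KO and 3.08, 1.62 and 0.739 in those of Homo KO. Its log2 change was -5.78 (SE 1.89, edgeR adjusted p = 0.218). Tcap, the titin cap protein, had 66.1, 62.9 and 0.463 CPM in the WT libraries, 9.53, 109 and 0.924 in those of Hete KO and 1.27, 0.713 and 0.0821 in those of Homo KO. Its log2 change was -5.99 (SE 1.96, edgeR adjusted p = 0.218). In all 3 genes the WT level came from WT 1 and WT 2, while WT 3 lay within or near the Homo KO range. For Acta1 the log2 fold change was -5.34 (SE 1.82, adjusted p = 0.225), for Ckm -6.26 (SE 2.09, adjusted p = 0.222) and for Myh4 -5.98 (SE 2.13, adjusted p = 0.238). Without WT 1, WT 2 and Hete KO 2, an alternative chosen after the data were seen that leaves WT 3 alone in its group, the median was 0.93, with Myh4 at 1.46 and Smpx at -1.72. Since the libraries left out are the ones named for their muscle RNA and WT 3 is among the lowest, these values depend on that choice and are no test of the genotypes.

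None of the 5 slow genes tested passed in this comparison. The log2 fold change was -0.01 for Tnnc1 (SE 0.306, edgeR adjusted p = 0.989), 0.43 for Myh7, -0.49 for Tnnt1, -0.22 for Myl3 and -1.11 for Tnni1.

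In Hete KO against WT the direction of the median muscle gene turned without Hete KO 2. The test by edgeR called 0 of the 40 muscle genes, beside 0.417% of all genes, and 1 had an unadjusted p under 0.05 and was higher in Hete KO, beside 9.7% of all genes in this direction. DESeq2 called 1 of 29, Hspb7, as higher, beside 3.63% of all its genes in this direction, and limma 0. The groups overlapped for all 40, while 24.7% of all genes had groups that did not overlap. The median log2 fold change was 0.57 (0.02 for all genes). When 1 library was left out it ranged from -2.86, without Hete KO 2, to 1.13, without Hete KO 3, and limma gave 0.14 and 0.27. Hspb7 had 17.1, 15.1 and 10.6 CPM in the WT libraries, 13.5, 27.9 and 46.1 in those of Hete KO and 10.3, 8.79 and 11.7 in those of Homo KO. Its log2 change was 1.03 (SE 0.370, edgeR adjusted p = 0.151), and without Hete KO 1 it was 1.40 and passed the test (edgeR adjusted p = 0.0250). Myh2 differed by 1.86 on the log2 scale (SE 0.949, edgeR adjusted p = 0.289) and Myh1 by 1.87 (SE 1.11, edgeR adjusted p = 0.358), both with their highest value in Hete KO 1. Without Hete KO 1 they differed by 0.53 and 1.01, and without WT 2 Myh1 differed by 2.96. By limma the values were 0.53 and 0.87 for Myh2 and 1.12 and 1.23 for Myh1.

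In Homo KO against Hete KO the muscle genes were mostly lower in every Homo KO library, without passing the test. The groups did not overlap for 28 of the 40, all of them lower in Homo KO, beside 5.64% of all genes in this direction and 11.3% in either. By edgeR 0 of the 40 passed, beside 0% of all genes, and 35 had an unadjusted p under 0.05, all lower, beside 3.19% of all genes in this direction. DESeq2 and limma called 0, and DESeq2 called 0.00788% of all its genes. The median log2 fold change was -5.78, between -6.37 and -2.53 when 1 library was left out, with -2.53 without Hete KO 2, and -3.40 and -3.84 by limma. The smallest p belonged to Hspb7 (log2 fold change -1.50, SE 0.376), Myh1 (-5.04, SE 1.33) and Smpx (-6.28, SE 1.86), each with an edgeR adjusted p of 0.900. Homo KO 1, the Homo KO library with the most muscle RNA, had 0.0896% of its counts on the 42 genes, and Hete KO 3, the lowest of its group, 0.120%. For Myh4 these libraries had 91.8 and 155 CPM. The 3 comparisons are not independent, since each pair of them shares a group. Nor are the muscle genes independent of each other, since for 29 of the 42 the highest 3 libraries were the same. The counts of genes given here are thus no counts of replicates.

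**Figure D5:**
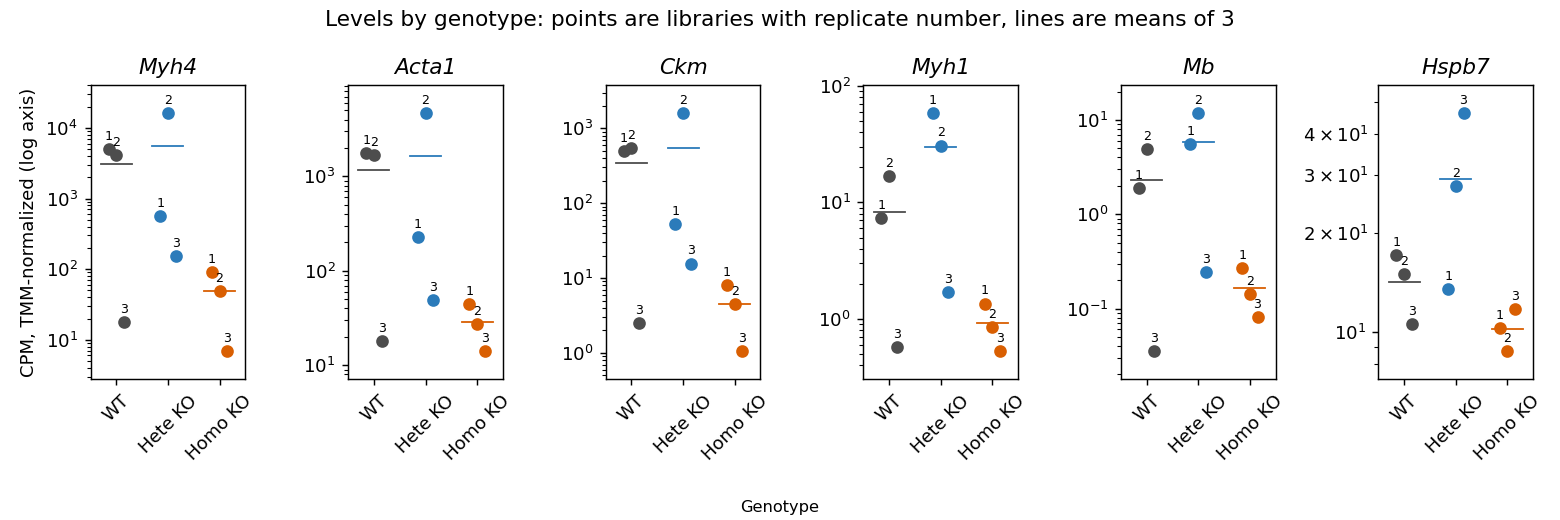
Normalized CPM on a log axis of 6 muscle genes in WT, Hete KO and Homo KO, with 1 point per library labelled by its replicate number and a line at the mean of 3. For Myh4, Acta1, Ckm and Mb the WT and Hete KO points spread over more than 10-fold, and WT replicate 3 lies under the Homo KO points 1 and 2.

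Further skeletal muscle genes, outside the list of 42, also had their highest sums in Hete KO 2. The 17 other sarcomere genes summed to 862, 646 and 28.7 TPM in the WT libraries, 106, 1918 and 50.8 in those of Hete KO and 51.1, 35.7 and 24.7 in those of Homo KO. In that list the kinase gene Mylk4 reached 842 TPM in Hete KO 2, Des, which encodes the intermediate filament desmin, 263 TPM and Cmya5 208 TPM. The 12 other genes of calcium release and uptake summed to between 115.5 TPM in Homo KO 3 and 768 TPM in Hete KO 2, led by the triad protein gene Trdn at 257 TPM. Atp2a2, the calcium pump of slow fibres, heart and most other cells, had 108, 108 and 95.7 TPM in the WT libraries, 101, 77.9 and 87.1 in those of Hete KO and 92.04, 92.4 and 87.3 in those of Homo KO. The 9 genes of the muscle membrane and nerve contact summed to between 21.4 and 176 TPM in the same libraries, and Scn4a, the muscle sodium channel, reached 52.7 TPM. By edgeR 0 genes of these 3 lists passed in any comparison. In Homo KO against WT the edgeR p was under 0.05 before adjustment and the gene lower for 15 of 17, 7 of 12 and 3 of 8 tested genes of these lists, beside 8.7% of all genes, and 1 gene of the calcium list was higher. DESeq2 called 3, 0 and 0 in either direction, beside 3.34% of all its genes. In Hete KO against WT 0, 1 and 0 were lower, beside 12.2% of all genes, and in Homo KO against Hete KO 15, 8 and 5, beside 3.19%, with none higher and 0 called by DESeq2 in both. Between Homo KO and WT 17 of 17, 10 of 12 and 7 of 8 tested genes had log2 fold changes below 0, with medians of -3.87, -3.10 and -2.86.

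The summed markers of developing, cardiac and smooth muscle did not have their highest value in Hete KO 2. Myh3, the embryonic heavy chain, had at most 0.0865 TPM and Myh8, the perinatal one, at most 1.71 TPM. Myl4, an atrial and embryonic light chain, had 62.3, 60.6 and 55.2 TPM in the WT libraries, 55.6, 29.7 and 51.97 in those of Hete KO and 49.0, 54.6 and 61.3 in those of Homo KO, and was lowest in Hete KO 2. Of the myogenic regulators, Myf6, which is active in mature fibres, had 22.3, 18.7 and 0.0431 TPM in the WT libraries, 1.93, 39.1 and 0.259 in those of Hete KO and 0.689, 0.505 and 0 in those of Homo KO. Myf6 was thus highest in Hete KO 2, WT 1 and WT 2. Myod1, the regulator that commits cells to muscle, had 47, 5 and 4 counts in Hete KO 2, WT 1 and WT 2 and 0 in the other 6 libraries. Pax7, the satellite cell gene, had 16 and 5 counts in Hete KO 2 and WT 1 and 0 in the other 7 libraries. The 8 cardiac genes summed to between 14.6 TPM in Hete KO 2 and 35.8 TPM in Hete KO 3, led by the calcium channel gene Ryr2, and Myl7, the atrial light chain, is listed at 0 in all 9 libraries. The 7 smooth muscle genes summed to between 120.0 TPM in Homo KO 3 and 224 TPM in WT 1, led by the actin gene Acta2. Single markers of these lists, chosen after their values were seen, had other orders than the sums. Lmod1, a smooth muscle leiomodin gene, had 3.02, 2.84 and 0.641 TPM in the WT libraries, 1.19, 2.72 and 1.65 in those of Hete KO and 1.07, 0.923 and 0.489 in those of Homo KO, and was highest in WT 1, WT 2 and Hete KO 2. Actc1, the cardiac actin gene, had 0.636, 1.98 and 0 TPM in the WT libraries, 0, 0.264 and 0.270 in those of Hete KO and 0, 0 and 0 in those of Homo KO, on 46 counts or fewer, and was highest in WT 2 and WT 1. The 6 keratinocyte genes, markers of skin, summed to between 0.367 and 1.78 TPM. The 7 brown fat genes summed to 367 TPM in WT 2 and 318 TPM in Hete KO 2, and to between 82.8 and 138 TPM in the other 7 libraries. The part that muscle RNA had in these brown fat sums was not tested. Of the glycolysis list, the lactate dehydrogenase gene Ldha and the glucose transporter gene Slc2a4 had 396 to 709 and 53.2 to 121.5 TPM, and Pfkm, the muscle phosphofructokinase, had 115, 123 and 9.34 TPM in the WT libraries, 24.2, 351 and 16.9 in those of Hete KO and 11.1, 12.2 and 12.9 in those of Homo KO. By edgeR 0 genes of the developmental, myogenic regulator, cardiac, smooth muscle, glycolysis and liver lists passed in any comparison. In Homo KO against WT the edgeR p before adjustment was under 0.05, with the gene lower, for 0 of 3, 1 of 2, 0 of 3, 1 of 7, 2 of 8 and 7 of 7 tested genes of these lists, beside 8.7% of all genes, and DESeq2 called 0, 0, 1, 0, 0 and 1, beside 3.34%. At the same p in Hete KO against WT 7 of 7 liver genes were lower, beside 12.2% of all genes, 1 of 8 glycolysis genes was higher, beside 9.7%, and the other 4 lists had 0. DESeq2 called 2 liver genes and 1 glycolysis gene there, beside 9.76% of all its genes. In Homo KO against Hete KO 1 of 2 regulators and 4 of 8 glycolysis genes were lower, beside 3.19% of all genes, the other 4 lists had 0, and DESeq2 called 0. The part that other cell types had in the muscle values was not tested.

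The promoters of the muscle genes were searched for motifs known from muscle promoters. RefSeq promoter sequences (GRCm38.p6) were matched for 32 of the 42 genes, and the 250 bases before each start were searched in their 38 windows and in all 32851 windows. The letters CANNTG, an E-box, occurred in 86.8% of the muscle windows and 66.2% of all windows. CAGCTG, a form of the same box that the myogenic factors bind, occurred in 44.7 and 13.0%. The MEF2 box occurred in 15.8 and 2.92%, and the CArG box, bound by serum response factor, in 10.5 and 1.47%. Every one of these motifs reads the same on both strands, and each CAGCTG also counts as CANNTG. A match describes the letters and not a binding site. The promoters of Acta1 (chr8:123894776-123895025, minus strand) and Myh4 (chr11:67237562-67237811, plus strand) are shown because Acta1 had the highest TPM of the 42 genes, and Myh4 of the heavy chains, in WT 1, WT 2 and Hete KO 2. Capitals mark CAGCTG, the MEF2 box and the CArG box.
Acta1: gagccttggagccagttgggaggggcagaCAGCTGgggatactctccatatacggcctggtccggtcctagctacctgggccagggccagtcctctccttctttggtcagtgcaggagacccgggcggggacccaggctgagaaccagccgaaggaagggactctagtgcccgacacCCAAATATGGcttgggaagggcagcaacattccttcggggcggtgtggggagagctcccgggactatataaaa
Myh4: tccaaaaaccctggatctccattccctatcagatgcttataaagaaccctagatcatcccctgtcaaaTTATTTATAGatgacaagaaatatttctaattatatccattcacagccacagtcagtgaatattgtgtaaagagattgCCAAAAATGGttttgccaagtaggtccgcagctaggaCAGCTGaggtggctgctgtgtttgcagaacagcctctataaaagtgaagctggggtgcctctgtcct
The Acta1 window holds 1 CAGCTG and 1 CArG box, and the Myh4 window holds 1 CAGCTG, 1 MEF2 box and 1 CArG box.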

How the data were processed

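RNA of whole subcutaneous fat was extracted with Trizol, per the labels' protocols. The deposited files hold, per the file headers, estimated counts (expected counts), which the authors left unnormalized and fractional, and TPM, which the authors scaled to transcript length and library total, for 113193 transcripts. Per the submitters' processing notes, the genome build is mm10. Not given in the sources used here are the quantifier, its annotation and its strand setting. Both values were summed to genes with GENCODE M21 (111450 transcripts, 98.46%, matched by identifier; the 1743 others held 0.566 to 1.03% of counts). Counts were rounded for testing. Totals were 20843427 to 28252001 estimated counts per library, and intervals cover counting error only.

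Genotypes were compared with edgeR 4.0.16 (R 4.3.3): TMM, filterByExpr (17984 genes kept), all 9 libraries in 1 fit, quasi-likelihood F-test, two-sided, Benjamini-Hochberg adjustment over all genes, threshold 0.05. Fold changes used a prior count of 0.125. On simulated data with 200 genes changed 4-fold in Homo KO against WT, the fit called 200 of them and 10 unchanged ones among 17725. Every simulated gene had the same spread, which does not hold for the muscle genes. How readily the fit would call a changed muscle gene was thus not tested. Fast shares were compared with exact permutation tests (scipy 1.17.1), and figures were drawn with matplotlib 3.10.9. Alternatives were DESeq2 1.42.0, RLE, no filter, 1 CPM in 3 libraries, limma 3.58.1 on log2 TPM with pseudocounts of 0.5 and 0.1, a replicate block, and leaving out each library. DESeq2 was run on all genes with a count, and members whose adjusted p it gave as missing were left out of its counts.

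Named with all values are the 14 genes of the fast and slow pairs, Acta1, Ckm, Mb, Atp2a1, Pvalb, Actn3 and Sln. Further named are the 3 members with the smallest p per comparison, the 3 whose share differed most over WT 1, WT 2 and Hete KO 2, and up to 3 genes per other list. Members and lists were chosen with earlier results of these data known.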

Additional observations from a re-analysis of the deposited data

How the results depend on the processing

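The number of muscle genes called stayed at 0 in all 3 comparisons with edgeR under RLE, no filter, the stricter filter and the replicate block, and with both limma fits. These data do not settle whether same-numbered libraries pair. Their deviations correlated from 0.0462 to 0.104 in Homo KO against WT, beside -0.148 to 0.107 for libraries with different numbers. In Hete KO against WT they correlated from -0.00344 to 0.458, beside -0.455 to 0.250. In Homo KO against Hete KO they correlated from -0.0726 to 0.000112, beside -0.0350 to 0.0629. DESeq2 called 13 in Homo KO against WT and 1 in Hete KO against WT. Leaving out each library in turn, edgeR called 0 in Homo KO against WT and in Homo KO against Hete KO, and 0 to 1 in Hete KO against WT, the 1 being Hspb7 without Hete KO 1. In Homo KO against WT, leaving out WT 1, WT 2 and Hete KO 2 (chosen after the data were seen; WT 3 is then assumed to vary like the other groups) turned the log2 fold change of Myh4 to 1.46, Acta1 to 0.67, Ckm to 0.83, Tnnc2 to 1.33 and Tcap to 0.55, while Smpx stayed lower at -1.72. As these libraries were chosen for their muscle RNA, these values are no test. In Hete KO against WT, the log2 fold change of Acta1 (0.50) was -0.0343 and -0.0288 in the limma fits with pseudocounts of 0.5 and 0.1, -0.0478 with the replicate block, and between -3.06 and 1.10 when 1 library was left out, with -3.06 without Hete KO 2 and -0.0494 without WT 3. With 1 library left out, Myh4 (0.85) ranged from -3.11 to 1.45 and Ckm (0.66) from -3.34 to 1.26, each lowest without Hete KO 2. The difference in fast share turned with protein-coding transcripts only to 0.0987 in Homo KO against WT, 0.0568 in Homo KO against Hete KO and 0.0419 in Hete KO against WT. In Hete KO against WT it also turned to 1.76 on estimated counts, 2.28 as the mean of the 6 pair shares and 9.73 without essential light chains. Leaving out 1 library gave -10.9 to -2.68 in Homo KO against WT, -9.74 to -2.27 in Homo KO against Hete KO and -5.61 to 4.33 in Hete KO against WT. With 1 library left out the smallest p that the exact permutation test can give is 0.2. It was reached in Homo KO against WT without WT 3 and in Homo KO against Hete KO without Hete KO 3. No paired test of the fast share was made. The causes were not tested, except that 3 libraries fewer leave 1 WT library. Genes with 3 or fewer counts in a library, such as Myl2, Smpx and Cacna1s, are limited by depth there.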
